A study of Mus musculus with 29 samples.

Results

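The values described here are those of a group of imprinted genes, genes expressed mainly from the copy inherited from 1 parent. The members were taken by symbol, under a rule that holds no measured value but was written with earlier results of these data known: the noncoding RNAs H19, Meg3, Rian and Mirg, and the protein-coding genes Dlk1, Peg3, Plagl1, Grb10 and Mest. Of these 9 symbols, 8 had a row among the 22537 genes of the count table. Mirg, the noncoding RNA that follows Rian in the genome, was not analysed here.

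Imprinted genes of this kind act on fetal and early postnatal growth, and most of them fall to low levels in adult tissue. H19, Meg3 and Rian are noncoding RNAs made from the maternal chromosome, Dlk1, Peg3, Plagl1 and Mest are made from the paternal one, and Grb10 is maternal in most tissues. In skeletal muscle H19 stays high in the adult, while Dlk1 is known from growing and regenerating muscle. The counts give the sum of both alleles, since inbred mice carry no differences by which the parental copies could be told apart.

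RNA was taken from the entire tibialis anterior, a fast muscle of the front of the lower leg, of C57BL/6 male mice, and 75-base reads of its poly-A RNA were counted per gene. There were 7 mice of 6 months (6m), 7 of 24 months (24m) and 8 labelled as 28 months or more (28m), 22 mice in all. The libraries of the 6m mice were prepared 2 times, so that the first run held 6m and 24m libraries and the second run held 6m and 28m libraries, 29 libraries in all. The labels name no treatment or altered gene, and the 28m mice were set against second-run 6m libraries and the 24m mice against first-run ones.

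The libraries held 17633475 to 33499162 counts, with a median of 24250878. The 6 fast-fibre markers of the labelled muscle summed to 107254 to 175454 CPM, counts scaled to a common library total, in every library. Each 6m mouse gave 2 libraries, which are repeat preparations from 1 animal, so each comparison of 28m or 24m with 6m had 1 library per mouse. The p-values measure the spread between mice of 1 strain and sex. In RNA from whole muscle, fewer cells of a type and less RNA per cell cannot be told apart.

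Several members carry small RNAs within their transcripts, which is why they are often described as host genes. The mature sequences lying inside the 3 hosts that the results turn on most are shown with the seed, bases 2 to 8, in capitals. The first 2 lie in the exon of H19, the next 3 in exons of Meg3 and the last 6 in introns of Rian.
miR-675-5p: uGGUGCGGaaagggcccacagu
miR-675-3p: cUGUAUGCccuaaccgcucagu
miR-1906: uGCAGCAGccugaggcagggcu
miR-770-5p: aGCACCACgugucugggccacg
miR-770-3p: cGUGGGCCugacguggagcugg
miR-341-5p: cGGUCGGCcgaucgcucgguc
miR-341-3p: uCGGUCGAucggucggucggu
miR-1188-5p: uGGUGUGAgguugggccagga
miR-1188-3p: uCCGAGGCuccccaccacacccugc
miR-370-5p: cAGGUCACgucucugcaguu
miR-370-3p: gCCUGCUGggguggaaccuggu

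No 2 of these share a seed. Mest carries a pair as well, miR-335-5p and miR-335-3p, in an intron. The sequences are RefSeq's for GRCm38.p6. Libraries of poly-A RNA measure the host transcripts and not the mature small RNAs, so nothing below is a level of a miRNA.

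Meg3 and Rian are read in the same direction from one imprinted domain of chromosome 12, and the 28m comparison called Rian and not Meg3, so the sequences around their RefSeq starts are shown. Each window runs from 250 bases before to 50 bases after the start, on the plus strand of GRCm38.p6, and CpG pairs are in capitals. The first is chr12:109540746-109541045 and the second chr12:109603695-109603994.
Meg3: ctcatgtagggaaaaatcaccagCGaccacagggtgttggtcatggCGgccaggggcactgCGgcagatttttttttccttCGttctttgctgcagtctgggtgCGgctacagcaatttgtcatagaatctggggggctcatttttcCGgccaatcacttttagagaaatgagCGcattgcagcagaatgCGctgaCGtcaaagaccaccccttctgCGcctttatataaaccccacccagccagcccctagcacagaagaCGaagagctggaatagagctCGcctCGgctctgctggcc
Rian: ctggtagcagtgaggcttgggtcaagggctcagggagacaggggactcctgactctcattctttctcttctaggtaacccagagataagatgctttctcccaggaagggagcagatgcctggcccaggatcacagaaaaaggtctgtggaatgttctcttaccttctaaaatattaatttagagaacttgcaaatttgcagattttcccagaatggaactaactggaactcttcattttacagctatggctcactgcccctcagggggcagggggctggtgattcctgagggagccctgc

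The Meg3 window held 13 CpG pairs and the Rian window 0, beside a median of 7 over 32851 promoters of the same length, of which 5.43% held none. The motif GGGGCCCC, an element bound by the Plagl1 protein, reads the same on both strands. It was found in 1 of the 12 windows listed for the members other than H19, that of Peg3, and in 1.08% of all promoters. Methylation and binding were not measured, and the windows describe the loci only.

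In genome build GRCm38, Dlk1 lies on chromosome 12 from 109452823 to 109463336, Meg3 from 109541001 to 109571726 and Rian from 109603940 to 109661716, all on the plus strand. H19 lies on chromosome 7 from 142575529 to 142578143 and Peg3 on the same chromosome from 6703892 to 6730431, both on the minus strand. Plagl1 is on chromosome 10 (13060504 to 13131694, plus strand), Grb10 on chromosome 11 (11930508 to 12038683, minus strand) and Mest on chromosome 6 (30723547 to 30748465, plus strand). Of the exonic bases of Mest, 23.1% lie opposite exons of Copg2, and since no source used here states the strand setting of the counting, reads there cannot be assigned to 1 of the genes. Of the exonic bases of Meg3, 6.8% lie opposite the annotated noncoding gene Gm26906.

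The members spanned a wide range of levels. Per kilobase of annotated exon, the median over the 29 libraries was 102 CPM per kb for H19, 2.5 for Grb10, 1.24 for Peg3, 1.21 for Mest, 0.721 for Meg3, 0.233 for Rian, 0.109 for Plagl1 and 0.103 for Dlk1. The ranges over libraries of neighbours in this order overlapped, except those of H19 (60.1 to 557 CPM per kb) and Grb10 (1.79 to 4.38). Grb10, which encodes an adaptor that restrains insulin receptor signalling, varied least, with 2.44-fold between its lowest and highest library. Dlk1, which encodes a membrane protein that inhibits differentiation, varied most, by 37.3-fold, and Peg3 and Rian varied by 25.3-fold and 24.4-fold.

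**Figure D1:**
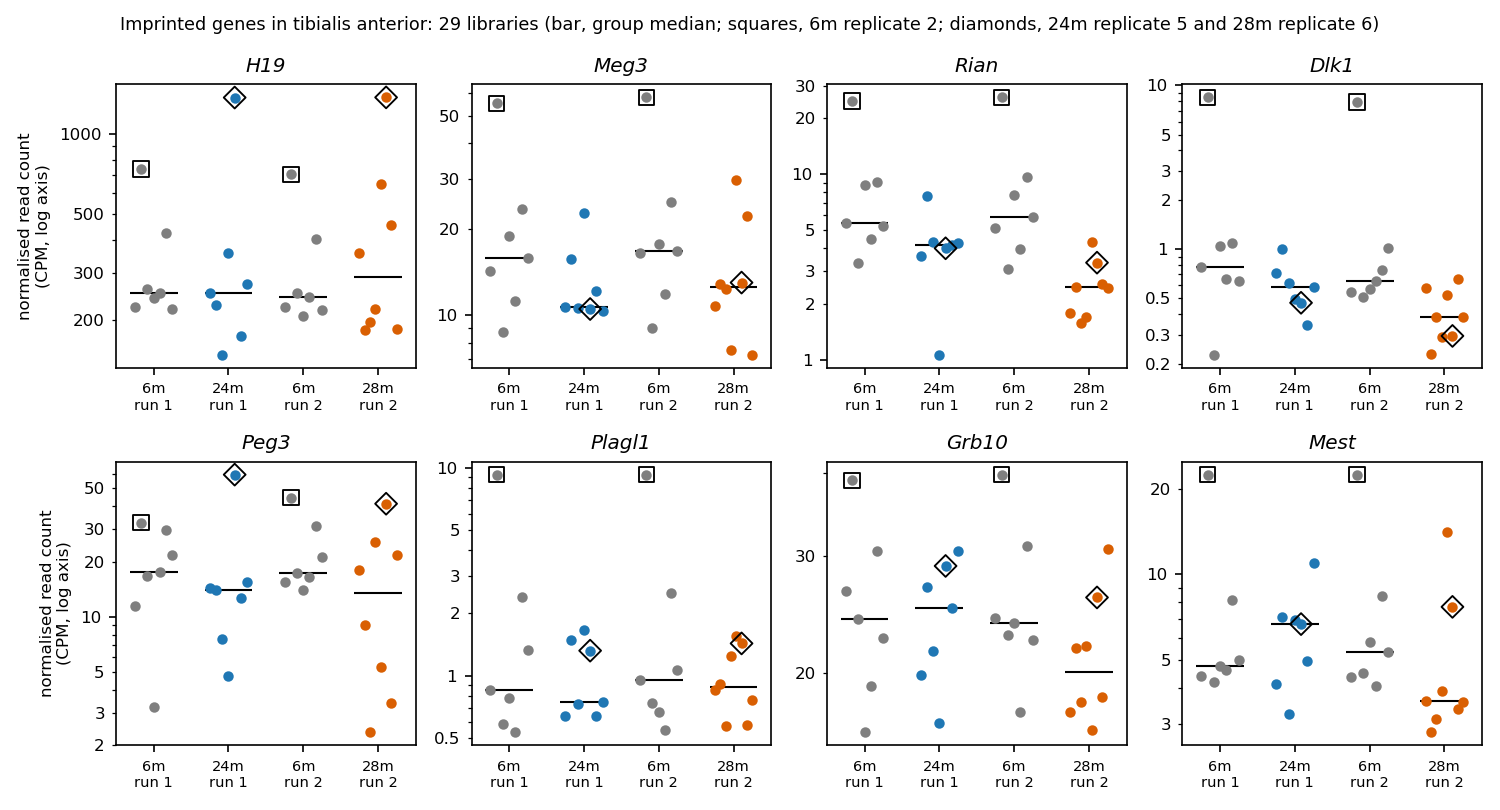
Normalised read count (CPM, log axis) of the 8 members in each of the 29 libraries, by group, with bars for the group medians. Squares mark 6m replicate 2, the highest 6m mouse for every member in both runs, and diamonds mark 24m replicate 5 and 28m replicate 6, which hold the highest H19 and Peg3 of their groups.

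Single mice set much of this range. At 6m, 1 mouse, replicate 2, had the highest level of every one of the 8 members, in both of its libraries. Its Dlk1 was 8.43 CPM in the first run and 7.89 CPM in the second, while the other 6m mice were between 0.226 and 1.09 CPM and between 0.513 and 1.01 CPM. Its Plagl1 was 9.25 CPM in both runs, 11.3-fold and 10.9-fold the median of the other mice, whereas its Grb10 was 1.67-fold and 1.71-fold the others' median. The plot of CPM by library shows this mouse apart from the rest of its group for H19, Meg3, Rian, Dlk1, Plagl1 and Mest, and closer to the next mouse for Peg3 and Grb10.

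The same mouse stood apart in other genes, which were picked after their values were seen. Postn, a matrix protein of growing and injured tissue, was 17.4-fold the median of the other 6m mice in the first run and 16.4-fold in the second. Col1a1, a fibrillar collagen, was 7.28-fold and 6.71-fold, and the embryonic and perinatal myosins Myh3 and Myh8 were 5.36-fold and 6.15-fold in the first run. The 6 markers of fibro-adipogenic cells summed to 326 CPM in this mouse against 158 to 247 in the other 6m mice of the first run, and to 318 CPM against 156 to 247 in the second. The 4 immune markers in the table summed to 136 CPM against 35.3 to 73.0 and to 127 CPM against 36.3 to 77.8, and no marker of these lists was at 0 throughout. In the first run its satellite cell markers summed to 47.8 CPM, within the 41.9 to 53.5 of the others, and its endothelial markers to 370.4 CPM, within the 289 to 477 of the others. Its fast-fibre markers summed to less than in every other 6m mouse, at 149828 against 157990.5 to 168272 CPM in the first run and 156535 against 162077 to 169612 CPM in the second. Their part in the levels of the members was not tested.

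Both preparations of a 6m mouse gave similar levels, as the plot of the first run against the second shows. Leaving out replicate 4, 44 of 48 pairs of values differed by less than 0.5 on the log2 scale, and the largest difference, 1.18, was that of Dlk1 in replicate 3 with 5 and 9 counts. Replicate 4 was the exception for Peg3, which encodes a zinc finger protein, with 3.22 CPM in the first run and 13.9 CPM in the second. In that first-run library Grb10 was 16.3 CPM against 23.8 CPM in the second, while Rian was 8.69 CPM against 7.70 CPM and Meg3 19 CPM against 17.7 CPM.

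**Figure D2:**
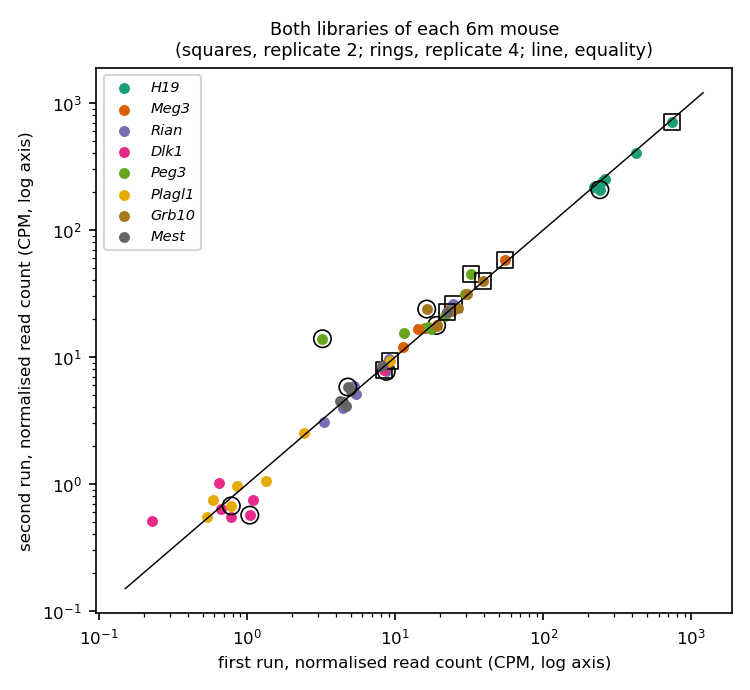
Normalised read count (CPM, log axes) of each member in the first-run library (x axis) and the second-run library (y axis) of each of the 7 mice of 6m, with a line of equality. Squares mark replicate 2, which is high in both libraries, and rings mark replicate 4, whose Peg3 was 3.22 CPM in the first run and 13.9 CPM in the second.

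Libraries also differed in how levels followed gene length. Over 13301 genes, the rank correlation of a library's deviation from the mean of all libraries with exonic length was between 0.33 and 0.45 in second-run 6m libraries and between -0.51 and 0.27 at 28m. It was below -0.4 in 28m replicates 1, 2, 3, 5 and 7. In the first run it was between -0.47 and 0.46 at 6m, with the lowest in replicate 4, and between -0.39 and 0.32 at 24m, with the lowest in replicate 4 of that group. Meg3 and Rian have the longest annotated exons of the members, 18089 and 18234 bases, and Peg3 has 13324, so this measure stands beside their values below.

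The first question was which members differed at 28m. Rian, a noncoding RNA that hosts small nucleolar RNAs and miRNAs, fell to 0.290 of its 6m level, with a smaller log2 change without 6m replicate 2 (-1.20 against -1.79) and no call in 2 of the settings below. Dlk1 was at 0.249 of its 6m level with 6m replicate 2 in the comparison, was not called without it, and passed the filter on low counts through the 6m group, so that its call is no support for a change. The other 6 members, H19, Meg3, Peg3, Plagl1, Grb10 and Mest, did not pass the test. In the quasi-likelihood test of edgeR, adjusted by Benjamini-Hochberg at 0.05, 2 of 8 members were lower and 0 higher, where 22.9% of the 12994 genes tested were lower and 24.3% higher, so the share of members called lower was near that of all genes. With an unadjusted p under 0.05 there were 3 members, Rian, Dlk1 and Plagl1, and 54.8% of all genes. The median log2 fold change was -0.58 over the 8 members and 0.01 over all genes tested. Over the members it was -0.13 without 6m replicate 2 and -0.38 with the trend with exonic length and GC content removed.

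In the second run, Rian was lowest at 3.08 CPM, had a median of 5.89 CPM and was highest at 25.9 CPM in the 7 mice of 6m, the next highest being 9.62 CPM. At 28m its lowest, median and highest values were 1.58, 2.45 and 4.31 CPM. The groups overlapped, but 6 of 8 mice at 28m had less than every 6m mouse. The means were 8.75 ± 7.89 CPM (SD, n = 7) and 2.52 ± 0.924 CPM (SD, n = 8). By edgeR, Rian had a log2 fold change of -1.79, with 0.40 as its standard error (adjusted p = 0.00258).

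Rian kept this call in all 15 fits that left out 1 mouse, with log2 fold changes between -1.94 and -1.20 and adjusted p between 0.00238 and 0.00602 by edgeR. The smallest change was the one without 6m replicate 2. With the trend with exonic length and GC content removed from each library it was -1.24 (adjusted p = 0.0223 by edgeR), and with both that removal and that mouse left out it was -0.69 (adjusted p = 0.0732). Leaving out the 5 libraries at 28m with the steepest loss of long genes, it was -1.80 with 3 mice at 28m (adjusted p = 0.0577). For scale, the 315 genes with 15000 to 25000 exonic bases had a median log2 fold change of -0.54, with quartiles of -0.77 and -0.22.

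Some genes of the marker lists were called at 28m as well, where 22.9% of all genes tested were lower and 24.3% higher. Of the 6 endothelial markers 5 were lower and 0 higher, and their sum was 203 to 339.9 CPM at 28m and 413 to 473 CPM at 6m. Of the 6 fibro-adipogenic markers 3 were lower and 1 was higher, with sums of 107 to 259 CPM and 156 to 318 CPM, and of the 5 satellite cell markers tested 2 were lower, with sums of 27.8 to 46.1 CPM and 41.2 to 51.6 CPM for the list. With the length and GC trend removed, 4 endothelial, 2 fibro-adipogenic and 2 satellite cell markers were lower, and 0 markers of these lists were higher. Of the 12994 genes tested, 2032 were then lower and 2841 higher. The satellite cell gene Pax7, named after its values were seen, was at 0 counts in 28m replicate 3, and no marker of these 3 lists was at 0 in every library. Of the other lists, 1 Schwann cell marker and 1 tendon marker were higher, and 0 adipocyte or immune markers passed by edgeR. Of the 6 fast-fibre markers 2 passed, and they are named for that reason. Myh4 was lower (log2 fold change -0.48, adjusted p = 0.0119 by edgeR) and Tnnt3 higher (0.47, adjusted p = 0.00706). Between the libraries of 6m replicate 4 the endothelial sum also differed, at 289 CPM in the first run and 449 CPM in the second. Their rank correlations with exonic length were -0.47 and 0.38. The part of these cell types in the levels of Rian and the other members was not tested. Nor was the part of gene length in the marker sums.

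Dlk1 was the lowest member in counts. At 6m in the second run it had 9 to 21 counts in 6 mice and 185 in replicate 2, and at 28m it had 5 to 18 counts in the 8 mice. Its lowest, median and highest levels were 0.513, 0.636 and 7.89 CPM at 6m and 0.229, 0.384 and 0.653 CPM at 28m. The groups overlapped, with 5 of the 8 mice at 28m below every 6m mouse. By edgeR, Dlk1 had a log2 fold change of -2.01, with 0.61 as its standard error (adjusted p = 0.0139), and without 6m replicate 2 it was -0.65 (adjusted p = 0.0540). DESeq2, which replaced the count of that mouse as an outlier, gave -0.61 (adjusted p = 0.0894). Dlk1 reached the limit of the filter on low counts, 0.425 CPM, in 7 of 7 mice at 6m and 3 of 8 at 28m, so it entered the test through the group in which it was higher.

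Meg3 had lowest, median and highest levels of 9.01, 16.8 and 58.0 CPM at 6m in the second run and 7.25, 12.6 and 29.8 CPM at 28m. The groups overlapped, and 2 mice at 28m had less than every 6m mouse. By edgeR, Meg3 had a log2 fold change of -0.60, with 0.38 as its standard error (adjusted p = 0.199), and its sign turned with the length and GC trend removed, at 0.13 (adjusted p = 0.827). Without 6m replicate 2 it was -0.13 (adjusted p = 0.743 by edgeR).

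**Figure D3:**
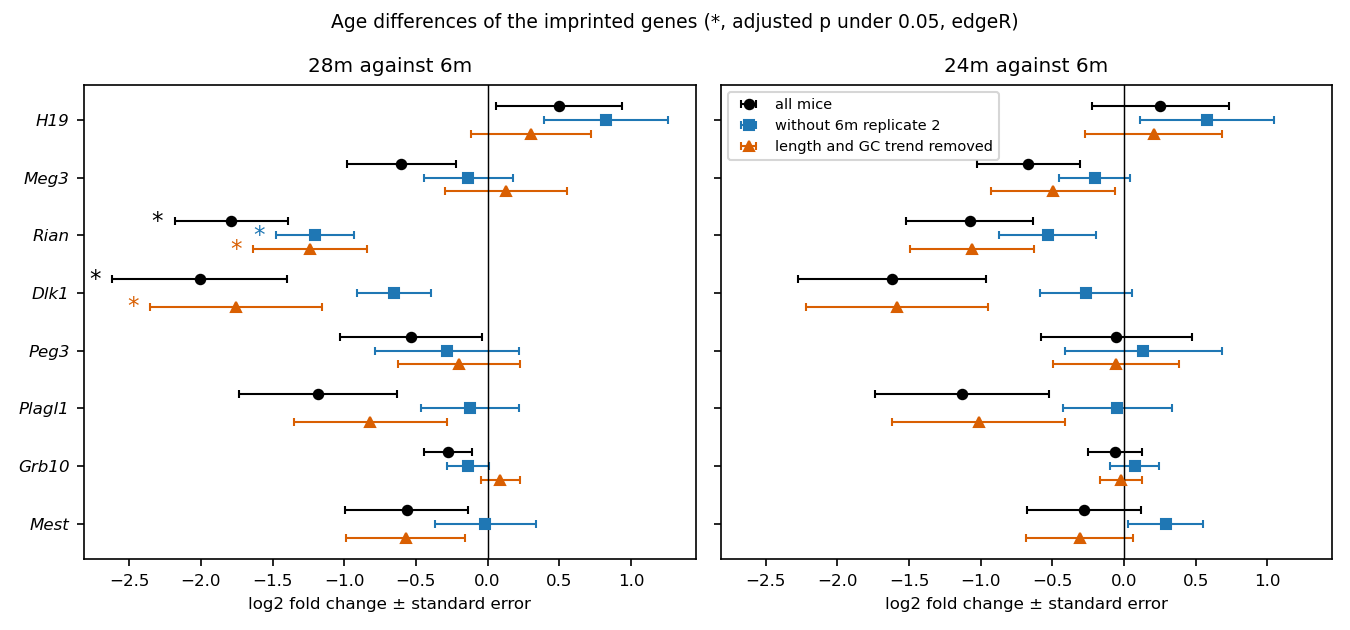
Log2 fold change of each member with its standard error (bars), for 28m against 6m of the second run (left) and 24m against 6m of the first run (right), with all mice, without 6m replicate 2, and with the trend with exonic length and GC content removed. Stars mark an adjusted p under 0.05 by edgeR, which Rian reached at 28m in all 3 settings, Dlk1 in 2 of them, and no member at 24m.

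Within the domain of chromosome 12, reads of Rian were compared with reads of Meg3 in the same library, a measure that needs no scaling between libraries. In the second run there were 30.9 to 44.7 reads of Rian per 100 reads of Meg3 in the 6m mice (median 35.2) and 11.5 to 33.5 in the 28m mice (median 17.9). The highest 28m mouse, replicate 8, lay within the range of 6m, and the other 7 lay below every 6m mouse. The mean log2 ratio was -1.44 ± 0.20 (SD, n = 7) at 6m and -2.43 ± 0.52 (SD, n = 8) at 28m, a difference of -0.99 (two-sided exact permutation test, p = 0.000932, adjusted over 4 tests p = 0.00373). Without each mouse in turn the difference stayed between -1.12 and -0.90, with adjusted p between 0.00233 and 0.00799 in the exact permutation test.

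The ratio moved with the loss of long genes among the 28m libraries. It was 11.5 to 19.3 per 100 in the 5 libraries with the steepest loss and 22.7, 25.5 and 33.5 per 100 in replicates 4, 6 and 8. With only those 3 mice at 28m the difference in the mean log2 ratio was -0.45 (exact permutation test, p = 0.05, adjusted p = 0.200, where 0.0167 is the smallest p the design allows). In the first run, the lowest rank correlations with length were those of 6m replicate 4 (-0.47) and 24m replicate 4 (-0.39). The former had 45.6 reads of Rian per 100 of Meg3, the highest of its group, and 43.4 in its second library, where the rank correlation was 0.38. The latter had 4.65, the lowest of all libraries. The part of gene length in the ratio was not tested.

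**Figure D4:**
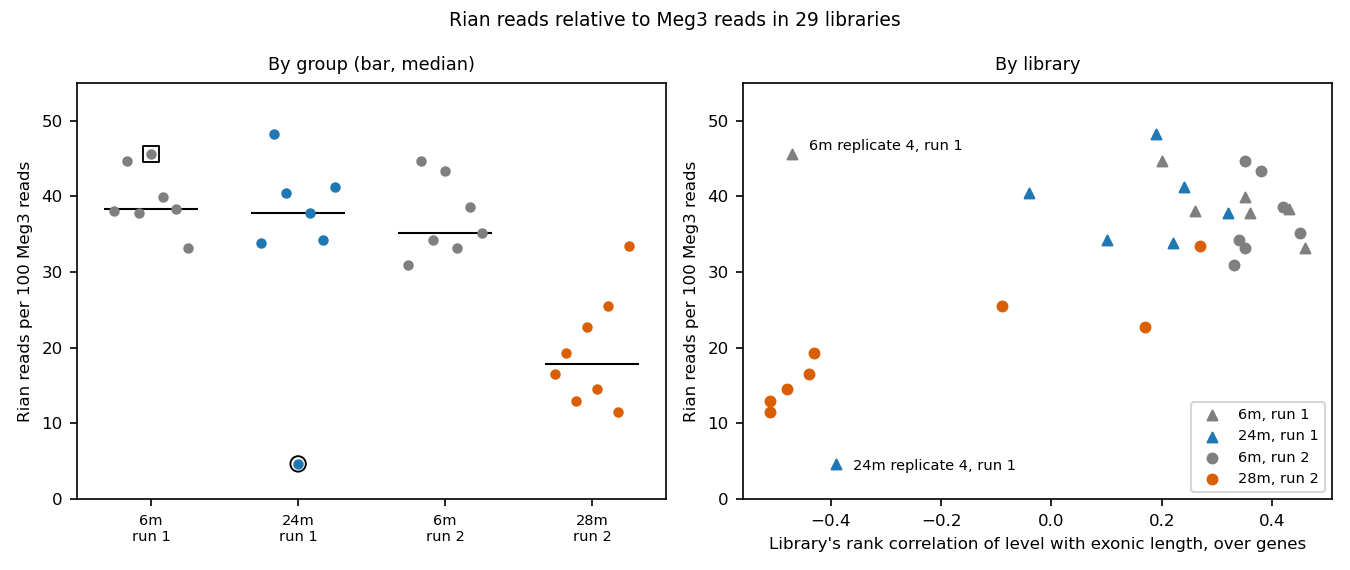
Reads of Rian per 100 reads of Meg3 in each of the 29 libraries, by group with bars for medians (left; the ring marks 24m replicate 4 and the square 6m replicate 4 of the first run), and against the library's rank correlation of level with exonic length over genes (right). The 28m libraries lie between 11.5 and 33.5, 7 of 8 below every 6m library of the second run, and 24m replicate 4 lies lowest at 4.65.

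For Dlk1, the paternal gene of the domain, the ratio to Meg3 had a mean log2 of -4.97 ± 0.63 (SD, n = 8) at 28m and -4.27 ± 0.75 (SD, n = 7) at 6m. The difference of -0.69 did not pass the exact permutation test (p = 0.0730, adjusted p = 0.146).

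H19 was the most abundant member at every age. Its lowest, median and highest levels were 207, 244 and 704 CPM at 6m in the second run and 183, 289.6 and 1371 CPM at 28m. The groups overlapped at both ends, with 3 of the 8 mice at 28m below every 6m mouse and 1 above. By edgeR, H19 had a log2 fold change of 0.50, with 0.44 as its standard error (adjusted p = 0.356), and without 28m replicate 6, the highest mouse, it was 0.01.

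Peg3 was spread over a wider range at 28m than at 6m. Its lowest, median and highest levels were 13.9, 17.3 and 44.6 CPM at 6m in the second run and 2.35, 13.5 and 41.3 CPM at 28m, and 4 of 8 mice at 28m had less than every 6m mouse. The 3 lowest, at 2.35, 3.37 and 5.32 CPM, were replicates 3, 7 and 5, which are among the 5 libraries with the steepest loss of long genes. By edgeR, Peg3 had a log2 fold change of -0.53, with 0.49 as its standard error (adjusted p = 0.383), and without those 5 libraries its sign turned, at 0.38.

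Plagl1, a zinc finger transcription factor that regulates other imprinted genes, had lowest, median and highest levels of 0.551, 0.957 and 9.25 CPM at 6m in the second run and 0.575, 0.884 and 1.56 CPM at 28m. No mouse at 28m lay outside the range of 6m. By edgeR, Plagl1 had a log2 fold change of -1.18, with 0.55 as its standard error (unadjusted p = 0.0467, adjusted p = 0.0862), and without 6m replicate 2 it was -0.12.

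Mest, which encodes an enzyme of the alpha/beta hydrolase fold, had lowest, median and highest levels of 4.07, 5.36 and 22.4 CPM at 6m in the second run and 2.80, 3.59 and 14.1 CPM at 28m. Here 6 of 8 mice at 28m had less than every 6m mouse, and 28m replicate 5 was the highest of its group. By edgeR, Mest had a log2 fold change of -0.56, with 0.43 as its standard error (adjusted p = 0.287). It was -0.96 without 28m replicate 5, which passed (adjusted p = 0.0495 by edgeR), and -0.02 without 6m replicate 2.

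Grb10 had lowest, median and highest levels of 17.5, 23.8 and 39.8 CPM at 6m in the second run and 16.4, 20.1 and 30.8 CPM at 28m, with 2 of the 8 mice at 28m below every 6m mouse. By edgeR, Grb10 had a log2 fold change of -0.28, with 0.17 as its standard error (adjusted p = 0.184) and became 0.09 with the length and GC trend removed. None of the 8 members separated the ages fully, where 6.66% of all genes had every 28m mouse below every 6m mouse and 5.65% had every one above.

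The second question was whether the members differed at 24m. In edgeR's test 0 of 8 members passed, where 11 of the 13103 genes tested, 0.084%, did (0.0229% lower and 0.0611% higher). Rian and Dlk1 were the 2 members with an unadjusted p under 0.05, which 11.8% of all genes had, and DESeq2 and limma-voom called 0 members each. Rian had lowest, median and highest levels of 3.30, 5.46 and 24.7 CPM at 6m in the first run and 1.06, 4.15 and 7.58 CPM at 24m. Only replicate 4 at 24m lay below every 6m mouse. Over all genes, 0.252% had every 24m mouse below every 6m mouse and 0.343% had every one above, and no member did either. By edgeR, Rian had a log2 fold change of -1.08, with 0.44 as its standard error (unadjusted p = 0.0284, adjusted p = 0.387), and without 6m replicate 2 it was -0.53.

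Dlk1 was between 0.342 and 1 CPM at 24m and between 0.226 and 8.43 CPM at 6m in the first run, with medians of 0.583 and 0.774 CPM. No mouse at 24m lay outside the range of 6m. By edgeR, Dlk1 had a log2 fold change of -1.62, with 0.66 as its standard error (unadjusted p = 0.0259, adjusted p = 0.386), and without 6m replicate 2 it was -0.27.

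The remaining members had log2 fold changes at 24m of -1.13 for Plagl1, -0.67 for Meg3, -0.28 for Mest, -0.06 for Grb10, -0.05 for Peg3 and 0.25 for H19, with adjusted p between 0.462 and 0.970 by edgeR. Without 6m replicate 2, Plagl1 was at -0.05, Meg3 at -0.21 and Mest at 0.29, and the median over the 8 members moved from -0.47 to 0.01. H19 ran from 148 to 1369 CPM at 24m with a median of 253 CPM, the same median as at 6m in the first run. Its highest mouse, 24m replicate 5, decided the sign, which turned to -0.48 without it. Peg3 ran from 4.78 to 59.5 CPM, with the same mouse highest. The ratio of Rian to Meg3 had a median of 37.8 per 100 at 24m and 38.3 per 100 at 6m. The difference in the mean log2 ratio, -0.45, rested on 24m replicate 4 (exact permutation test, p = 0.430, adjusted p = 0.533), and was -0.02 without that mouse.

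The age effects at 28m and 24m were compared in 1 fit of all 29 libraries, which holds 2 libraries of each 6m mouse without pairing them, since a call at 1 age alone does not show that the effects differ. For Rian the 28m effect was lower than the 24m effect by a log2 difference of -0.69 (0.61 as standard error, adjusted p = 0.607 by edgeR). For Dlk1 the log2 difference was -0.38 (0.92 as standard error, adjusted p = 0.863). No member passed, none had an unadjusted p under 0.05, and DESeq2 called 0. Among all 13455 genes tested 0.0% passed in edgeR's test, and 12% had an unadjusted p under 0.05. Between the 6m libraries of the runs, 0 of 8 members passed in edgeR or DESeq2 and none had an unadjusted p under 0.05, where 2.77% of all genes had one (8.17% with each mouse as its own block). With each mouse as its own block, the log2 difference between runs was -0.02 for Rian (0.06 as standard error, adjusted p = 0.939 by edgeR) and 0.33 for Peg3 (0.20 as standard error, adjusted p = 0.498).

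Next, the members were compared among mice of the same age. After the group mean was removed from log2 CPM and the libraries of each 6m mouse were averaged, 27 of 28 pairs of members had a positive Pearson r over 22 mice, with a median of 0.53. Without 6m replicate 2 the median was 0.32. Over all pairs of 13431 genes the median r was 0.00 in both cases, and 50.2% were positive. In permutation tests with 100000 resamples and adjustment over the 28 pairs, 16 pairs passed by Pearson's r and 4 by Spearman's rho. With the length and GC trend removed these were 13 and 3, and the median r without 6m replicate 2 was 0.22. Neither the share of all gene pairs that would pass nor the count without 6m replicate 2 was computed. The counts therefore stand without a background. The 4 that passed by both were Plagl1 with Mest, H19 with Mest, Peg3 with Grb10 and Rian with Mest.

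Plagl1 and Mest were the closest pair, with r = 0.78 (permutation test, adjusted p = 0.00140) and rho = 0.71 (permutation test, adjusted p = 0.00840). Leaving out the 2 mice farthest from the median of Plagl1, r was 0.65. H19 and Mest had r = 0.66 and rho = 0.64 (permutation tests, adjusted p = 0.00812 and 0.0168), and r rose to 0.80 without 24m replicate 5 and 28m replicate 6. Peg3 and Grb10 had r = 0.65 and rho = 0.66 (permutation tests, adjusted p = 0.00401 and 0.0164), and r was 0.66 without 24m replicate 5 and 28m replicate 3. Rian and Mest had r = 0.61 and rho = 0.59 (permutation tests, adjusted p = 0.00935 and 0.0281), and r was 0.63 without 6m replicate 2 and 24m replicate 4 but 0.43 without 6m replicate 2 alone.

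Meg3 and Rian, neighbours on the same strand, had r = 0.53 and rho = 0.55 (permutation tests, adjusted p = 0.0246 and 0.0544). Without 6m replicate 2 alone r was 0.31, and without 6m replicate 2 and 28m replicate 5 it was 0.16. The mouse 24m replicate 4, with deviations of 0.87 for Meg3 and -1.69 for Rian, lay opposite to the relation and stayed in all of these values. Meg3 and Dlk1 had r = 0.71 and rho = 0.40 (permutation tests, adjusted p = 0.00401 and 0.120), and r was 0.50 without the same mice. H19 and Peg3, both highest in 24m replicate 5 and 28m replicate 6, had r = 0.47, which was 0.06 without that pair of mice. Meg3 and Peg3 were the only pair with a negative r over all 22 mice, -0.24. Without 6m replicate 2, r was -0.44 for this pair and was also negative for Meg3 with Grb10 (-0.28), Dlk1 with Peg3 (-0.16) and Dlk1 with Grb10 (-0.06).

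**Figure D5:**
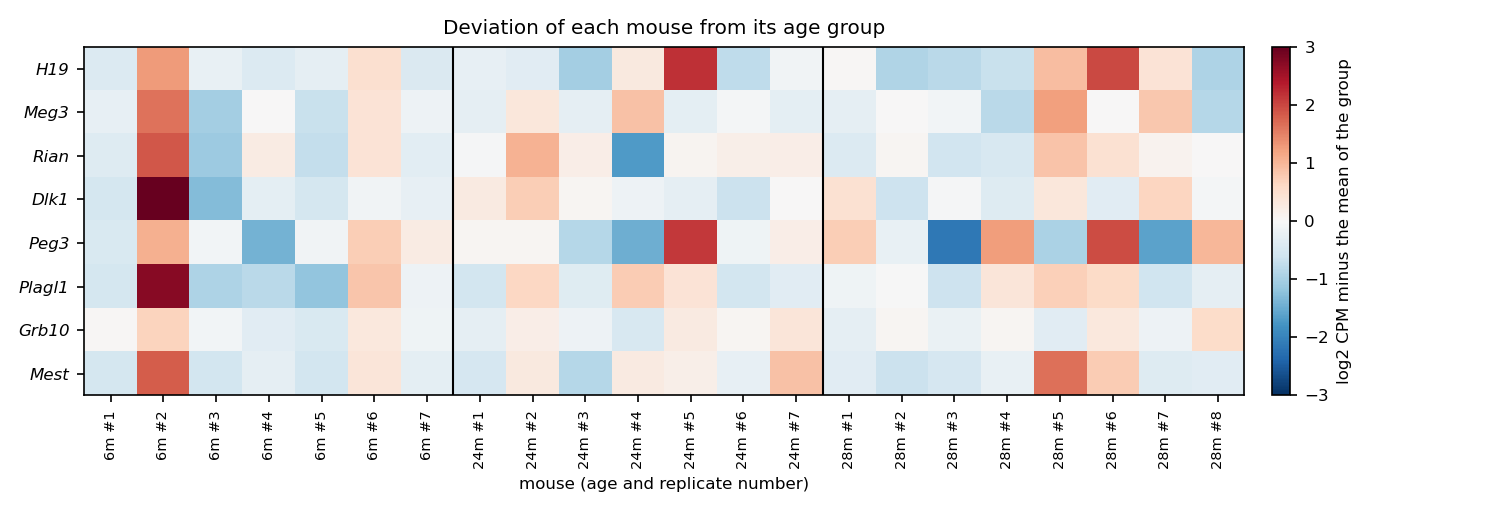
Deviation of log2 CPM from the mean of the age group, from low (blue) to high (red), for each member (rows) in each of the 22 mice (columns, in order of age and replicate). The column of 6m replicate 2 is high for all 8 members, up to 2.98 for Dlk1, and 24m replicate 5 and 28m replicate 6 stand out for H19, at 2.19 and 1.97, and for Peg3, at 2.11 and 1.95.

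In the mice highest in H19 and Peg3, a few other genes, again picked after their values were seen, were also high. Chrng, the fetal subunit of the acetylcholine receptor, was 31.9 CPM in 24m replicate 5 and 13.9 CPM in 28m replicate 6, where the other mice of their groups had at most 14.2 and 2.74 CPM. The receptor subunit Chrnd was 18.9-fold and 11-fold the median of the others in these mice, and Myh8 was 11.6-fold and 7.63-fold. Meg3 was 10.5 and 13 CPM in them, 0.921-fold and 1.06-fold the median of the other mice, and Dlk1 was 0.782-fold and 0.768-fold. Their fibro-adipogenic marker sums of 157 and 128 CPM lay within the ranges of the other mice of their groups, 122 to 221 and 107 to 259 CPM. In 24m replicate 5 the sums were below those of every other 24m mouse for fast fibres (107254 against 119950.2 to 175454 CPM), satellite cells (34.2 against 39 to 50.7 CPM) and Schwann cells (24.9 against 29.2 to 50.3 CPM). In 28m replicate 6 the adipocyte sum was the lowest of its group, at 2.69 against 5.29 to 41.5 CPM. Their part in H19 and Peg3 was not tested.

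Among 13430 genes, those with the highest within-group r over the 22 mice were named for each member as a description. The mice share 1 strain. Levels also varied with gene length and with single mice, whose part in these r values was not tested. For Peg3 they were its neighbour Zim1 (r = 0.95), Eml5 (0.94) and the imprinted receptor gene Igf2r (0.93). For H19 they were Agtrap (0.93), Maged1 (0.92) and Myh8 (0.90). For Meg3 they were Ppic (0.91), the protease gene Ctsk (0.90) and the microfibril gene Mfap5 (0.90), and for Rian the collagen VI gene Col6a1 (0.89), Leprel2 (0.85) and Fyn (0.85). For Mest they were the laminin gene Lamb1 (0.88) and the collagen genes Col6a3 and Col3a1 (both 0.84). For Dlk1 they were Islr (0.80), Ndrg4 (0.79) and the fibroblast gene Fap (0.77), for Plagl1 Gpsm2 (0.84), Fos (0.84) and Nelf (0.83), and for Grb10 Klhl13 (0.84), Rabgap1l (0.82) and Adamts12 (0.81). Without 6m replicate 2 these values were between 0.63 and 0.95.

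Other imprinted genes were taken as a list of 59, of which 57 were in the table and 40 were tested in each age comparison. At 28m, 4 were lower and 11 higher by edgeR, a share of 37.5% where 47.3% of all genes passed in either direction, and the median log2 fold change was 0.08. With the length and GC trend removed, 3 were lower and 10 higher. The split was 6 and 6 without the 5 libraries at 28m low in long genes, and 8 and 10 without 28m replicate 8. Without 28m replicate 4 or 28m replicate 6 it was 6 and 11. At 24m, 0 passed by edgeR and 0 by limma-voom, 4 of 40 had an unadjusted p under 0.05 beside the 11.8% of all genes, and DESeq2 called 2, Slc38a4 lower and Ddc, named for this call, higher.

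Of the 9 network genes among them, which are often named together with the members, 2 were lower at 28m and 0 higher. Of all genes tested 22.9% were lower and 24.3% higher, so the share of network genes called lower was near that of all genes. With the length and GC trend removed 1 network gene was lower and 1 higher. Slc38a4, an amino acid transporter gene, had a log2 fold change of -1.83 (0.24 as standard error, adjusted p = 0.000213 by edgeR), with all 8 mice at 28m below all 7 at 6m. Igf2r, the receptor that clears Igf2, had -0.58 (0.23 as standard error, adjusted p = 0.0494 by edgeR), with 5 of 8 mice at 28m below every 6m mouse and 1 above. Igf2, the growth factor gene beside H19, ran from 13.7 to 45.5 CPM at 6m in the second run and from 15.2 to 40.7 CPM at 28m, and its log2 fold change was 0.12 (adjusted p = 0.732). Cdkn1c, a cell cycle inhibitor gene, had 0.25 (adjusted p = 0.211). The other network genes, Dcn, Gatm, Gnas, Ndn and Sgce, had log2 fold changes of -0.15, -0.03, 0.05, -0.28 and 0.12 and did not pass.

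Of the rest of the list, the lower genes at 28m were Atp10a (log2 fold change -0.98, adjusted p = 0.00166 by edgeR) and Ube3a (-0.34, adjusted p = 0.00248). The higher genes with the largest changes were Slc22a18 (0.90, adjusted p = 0.0101, over the filter limit in 6 of 8 mice at 28m and 1 of 7 at 6m, so tested through the group in which it was higher), Tssc4 (0.84, adjusted p = 0.00166) and Peg10 (0.78, adjusted p = 0.0136). Among the imprinted neighbours of the members, 2 of the 5 tested were higher and 0 lower by edgeR, beside 24.3% and 22.9% of all genes. All those named here were picked after their values were seen. The higher ones were Nctc1, which lies downstream of H19, with all 8 mice at 28m above all 7 at 6m (0.50, adjusted p = 0.00107), and Cobl beside Grb10 (0.21, adjusted p = 0.0297). Zim1 beside Peg3 (-1.33, adjusted p = 0.0526), Copg2 opposite Mest (-0.28, adjusted p = 0.322) and Ddc (0.75, adjusted p = 0.0618) did not pass by edgeR. By limma-voom Zim1 was called lower (-2.13, adjusted p = 0.00616).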

How the data were processed

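The authors demultiplexed the reads with bcl2fastq 2.20, aligned them to mm10 with STAR 2.5.4b and deposited whole-number read counts per gene from its GeneCounts option, with an iGenomes annotation. The strand setting is not given in the sources used here. Their processing notes also name R 3.5.1 and DESeq2 1.22.2. The labels and the study's methods differ on the RNA input, and the design text exchanges the numbers of 24m and 28m mice, for which the sample labels were used.

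From the counts, genes were filtered with filterByExpr (minimum count 10), scaled with TMM and tested with glmQLFTest in edgeR 4.0.16 (R 4.3.3) over all genes, with Benjamini-Hochberg adjustment and a threshold of 0.05. CPM values use TMM over all libraries. Alternatives used DESeq2 1.42.0 and limma 3.58.1. Log2 CPM for co-variation used a prior count of 2, and ratios within a library used counts plus 0.5. Ratios to Meg3 had 4 tests, since Mirg had no row. All 8 members passed the filter. Permutation tests used scipy 1.17.1. Lengths and positions are from GENCODE M21. The annotation matched 20202 genes by symbol and 1905 by synonym, and its exons need not be those the authors counted.

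Same-numbered 6m libraries come from the same mouse by the labels. Over genes, the deviations of the libraries of 1 mouse correlated at 0.22 to 0.81, and all 7 mice matched themselves best. The fits were tested on simulated counts. Standard errors rest on the spread between mice as well as on counts, and 0 columns of the table had no sample. Named genes were every member, each network gene, up to 3 further imprinted genes per direction, and the 3 genes most like each member. Other genes named were picked after their values were seen. The members and lists were chosen with earlier results of these data known.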

Additional observations from a re-analysis of the deposited data

Results flagged for a closer look

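In 40 sets of values, 1 for each member or ratio in each group, a highest or lowest library was set apart by Dixon's test at the 95% level 17 times. That level assumes normally distributed values, and the members entered as CPM without a log scale, so no chance rate is set beside the count. The sets are not independent, since the 6m mice enter with both of their libraries. Of the 17, 12 belonged to the same mouse, 6m replicate 2, which are 6 members counted in both preparations. Its levels in the first and second run were 737 and 704 CPM for H19, 55.3 and 58.0 CPM for Meg3, 24.7 and 25.9 CPM for Rian, 8.43 and 7.89 CPM for Dlk1, 9.25 and 9.25 CPM for Plagl1, and 22.4 and 22.4 CPM for Mest. The nearest other mice were at 423 and 403 CPM for H19, 9.02 and 9.62 CPM for Rian, and 1.09 and 1.01 CPM for Dlk1.

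Among the older mice, H19 was 1369 CPM in 24m replicate 5 and 1371 CPM in 28m replicate 6, far above the next mice at 357 and 647 CPM. Peg3 was 59.5 CPM in 24m replicate 5, with the next mouse at 15.5 CPM. Mest was 14.1 CPM in 28m replicate 5, with the next at 7.70 CPM. The log2 ratio of Rian to Meg3 was -4.40 in 24m replicate 4, with the next lowest at -1.56. No member passed the test of a difference between the age effects.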

How the results depend on the processing

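Of 150 values of members at 28m and 24m under alternatives other than leaving out 1 mouse, 131 kept their direction and their side of the threshold, 6 fell short of it and 13 turned sign. The count of members called at 28m was 2. It was 1 with DESeq2, with limma-voom and with a minimum of 10 counts in every library, and 0 with the trend removed and 6m replicate 2 left out, or without the 5 libraries at 28m low in long genes (3 mice then remained). Leaving out 1 mouse gave 1 to 3, with 1 only without 6m replicate 2 and 3 only without 28m replicate 5. The combined setting, the leaving out of the 5 libraries and that of the libraries apart in the ratios were chosen after seeing the data.

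At 28m, signs turned to 0.13 for Meg3 and 0.09 for Grb10 with the trend removed, to 0.58 for Meg3, 0.04 for Peg3, 0.20 for Plagl1 and 0.21 for Grb10 when 6m replicate 2 was also left out, and to 0.38 for Peg3 and 0.03 for Grb10 without the 5 libraries. At 24m, H19 was -0.03 with limma-voom, and with the trend removed and 6m replicate 2 left out Peg3 was 0.15, Plagl1 0.05, Grb10 0.11 and Mest 0.23. The cause was not tested. Leaving out 1 mouse at 24m, H19 ranged from -0.48 to 0.58, Meg3 from -0.86 to -0.21, Plagl1 from -1.30 to -0.05, Peg3 from -0.72 to 0.14, Grb10 from -0.15 to 0.08 and Mest from -0.46 to 0.29.

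The log2 ratio of Rian to Meg3 at 28m differed by -0.45 without the 5 libraries, short of the threshold. Without 24m replicate 4 and 6m replicate 2, the 24m differences became 0.01 for Rian to Meg3 and 0.17 for Dlk1 to Meg3. Other imprinted genes called at 24m were 2 with DESeq2, and at 28m 11 to 18 without 1 mouse. With the mouse as a replicate block, 0 members passed between the runs, and 0 for the difference between the age effects (limma-voom, Rian -0.57, adjusted p = 0.427), so the block changed no call. Low counts limit Dlk1, at 5 to 18 counts at 28m.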

Other observations

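The mouse with the lowest Rian of all, 24m replicate 4, stood apart in further genes, which were picked after their values were seen. Its Meg3 was the highest of the 24m mice, at 22.8 CPM. Cdkn1c, the imprinted inhibitor of the cell cycle, was 69.1 CPM against 19 to 35 CPM in the other 24m mice. Myog, a transcription factor of differentiating muscle cells, was 36.5 CPM against 3.49 to 23.9 CPM. Pax7, the factor that defines satellite cells, had 2 counts, or 0.0664 CPM, against 1.08 to 2.07 CPM, while the 6 satellite cell markers together summed to 45.1 CPM, within the 34.2 to 50.7 CPM of the other 24m mice. The endothelial markers summed to 136 CPM against 305 to 429.9 CPM. The library's rank correlation of level with exonic length was -0.39, the lowest of its group. The part of gene length in these values was not tested.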
